A study of Mus musculus with 6 samples.

Results

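The thermogenic genes of brown and beige fat are described here in inguinal white adipose tissue (IngWAT) of mice lacking Hdac3 in adipocytes (H3atKO) and of their floxed controls. The set was listed by name and holds 9 genes, Ucp1, Dio2, Cidea, Ppargc1a, Prdm16, Cox8b, Cox7a1, Fabp3 and Kcnk3, out of 46517 genes in the deposited count tables. All 9 passed the filter on low counts, which kept the 14967 genes that reached 1 cpm (counts scaled to library size) in any sample.

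Both genotypes carried Hdac3 alleles flanked by loxP sites on a C57Bl6 strain background, and H3atKO mice carried in addition the Adipoq-cre transgene. The Adipoq promoter drives the recombinase in mature adipocytes of white and brown depots, so that the other cells of the pad kept Hdac3. All mice were 5 to 9 months old, ate chow and were kept in standard housing, with no cold exposure and no adrenergic drug named in the labels. RNA of 2 or 3 mice was combined to 500 ng for each sample, with 3 such pools per genotype, so that the spread between samples is a spread between pools and p-values measure that spread.

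Hdac3, the deleted gene, was at 65.8 to 80.3 cpm in floxed and at 12.9 to 27.4 cpm in H3atKO pools. Between 23865507 and 35200685 reads per pool were counted on genes. The share of counts on genes of the mitochondrial genome was 6.92% to 12.9% in floxed and 26.9% to 35.3% in H3atKO pools. Each pool's deviation from the mean of all pools followed the GC content of the genes (Spearman's rho across 14922 genes, which are not independent replicates) with a rho of 0.80, 0.62 and 0.10 in floxed and of -0.43, -0.50 and -0.71 in H3atKO replicates 1 to 3. Because GC content set the genotypes apart without overlap, an effect of genotype on a GC-rich or GC-poor gene and an effect of GC content cannot be told apart in these data. Adipoq and Fabp4, which define adipocytes, were abundant in every pool. The 10 adipocyte markers summed to between 25282 and 46567 cpm in floxed and to between 36992 and 77988 cpm in H3atKO pools, of which Lpl and Fabp4 made up the larger part (50718 and 22051 cpm in H3atKO replicate 2). Their median log2 fold change was -1.53, and -0.60 with the GC correction. In limma voom 1 was called higher and 1 lower, beside 9.42% and 7.07% of all genes tested. With the replicate number as a block 1 was called higher and 5 lower (Cidec, Lipe, Pnpla2, Cfd and Retn), beside 24.8% and 28.7% of all genes tested.

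Brown and beige adipocytes burn fat to make heat. Noradrenaline released by sympathetic nerves acts on beta-adrenergic receptors and raises cyclic AMP, which frees fatty acids and switches on a set of genes for heat production. Beige cells appear among the white adipocytes of IngWAT, mainly on cold exposure, and carry many of the same gene products as brown cells of the interscapular depot. Ucp1 is the uncoupling protein that lets protons leak across the inner mitochondrial membrane. Most other genes of the set supply thyroid hormone, lipid, respiratory chain subunits and transcriptional control to cells that use Ucp1. Kcnk3 instead encodes a potassium leak channel that holds down the adrenergic response.

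The promoters of the 3 members with a role in the response to cyclic AMP are shown to give the sequence around their start sites, before the values. The RefSeq table, on build GRCm38.p6, matched 7 of the 9 members (not Cidea or Kcnk3). Each line gives the 250 bases before the RefSeq start on the strand of the gene, in lower case. Capitals mark TGACG, the core of the cyclic AMP response element, and AGGTCA, the core letters that nuclear receptors recognise, searched on both strands.
Ucp1, chr8:83290098-83290347, plus strand: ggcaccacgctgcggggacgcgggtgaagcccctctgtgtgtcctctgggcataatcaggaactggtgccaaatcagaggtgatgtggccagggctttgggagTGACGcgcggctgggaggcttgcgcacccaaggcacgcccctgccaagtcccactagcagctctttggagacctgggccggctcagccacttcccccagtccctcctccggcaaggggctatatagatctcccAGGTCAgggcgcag
Dio2, chr12:90739039-90739288, minus strand: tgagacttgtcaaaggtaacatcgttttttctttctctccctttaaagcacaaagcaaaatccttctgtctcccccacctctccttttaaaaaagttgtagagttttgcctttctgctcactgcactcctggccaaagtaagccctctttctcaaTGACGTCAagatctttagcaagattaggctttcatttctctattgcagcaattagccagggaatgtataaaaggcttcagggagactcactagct
Ppargc1a, chr5:51567726-51567975, minus strand: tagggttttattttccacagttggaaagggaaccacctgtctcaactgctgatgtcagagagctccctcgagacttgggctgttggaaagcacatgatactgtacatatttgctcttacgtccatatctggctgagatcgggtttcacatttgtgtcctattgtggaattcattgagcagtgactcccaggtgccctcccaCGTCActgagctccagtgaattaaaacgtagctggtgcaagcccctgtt
The Dio2 promoter held TGACG on both strands, at -95 on the plus strand and overlapping it at -92 on the minus strand, which together spell TGACGTCA. The Ucp1 promoter held TGACG once, at -147, and AGGTCA once, at -14. The Ppargc1a promoter held TGACG once, at -49 on the minus strand, and Fabp3 held it as well. TGACG was thus in 4 of the 7 member promoters and in 17.8% of all 32851 promoters of the table over the same length. AGGTCA was in 1 of the 7 and in 14.0% of all. A match describes the letters in this window and does not show that a factor bound there.

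In H3atKO mice 1 of the 9 thermogenic genes, Dio2, was upregulated and none was down-regulated at an adjusted p under 0.05 (limma voom, Benjamini-Hochberg over 14967 genes). Of all genes tested, 9.42% were called higher and 7.07% lower by the same rule. The median log2 fold change of the 9 genes was 1.19, against -0.09 over all genes tested. Pools with the same replicate number deviated together, and with the replicate number as a block 5 members were called higher (Ucp1, Dio2, Cidea, Ppargc1a and Fabp3) and 2 lower (Prdm16 and Kcnk3), in a fit that called 24.8% of all genes higher and 28.7% lower. With each pool's GC curve removed, 2 members were called higher (Cidea and Cox8b) and none lower, beside 5.40% and 3.10% of all genes. With both the block and the GC correction, 5 were called higher (Ucp1, Dio2, Cidea, Cox8b and Fabp3) and none lower, beside 13.0% and 9.88% of all genes. The range of the H3atKO pools lay apart from that of the floxed pools for 5 of the 9 members, as for 51.7% of all genes tested. In IngWAT as a whole, more cells of a type and more RNA per cell cannot be told apart.

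**Figure D1:**
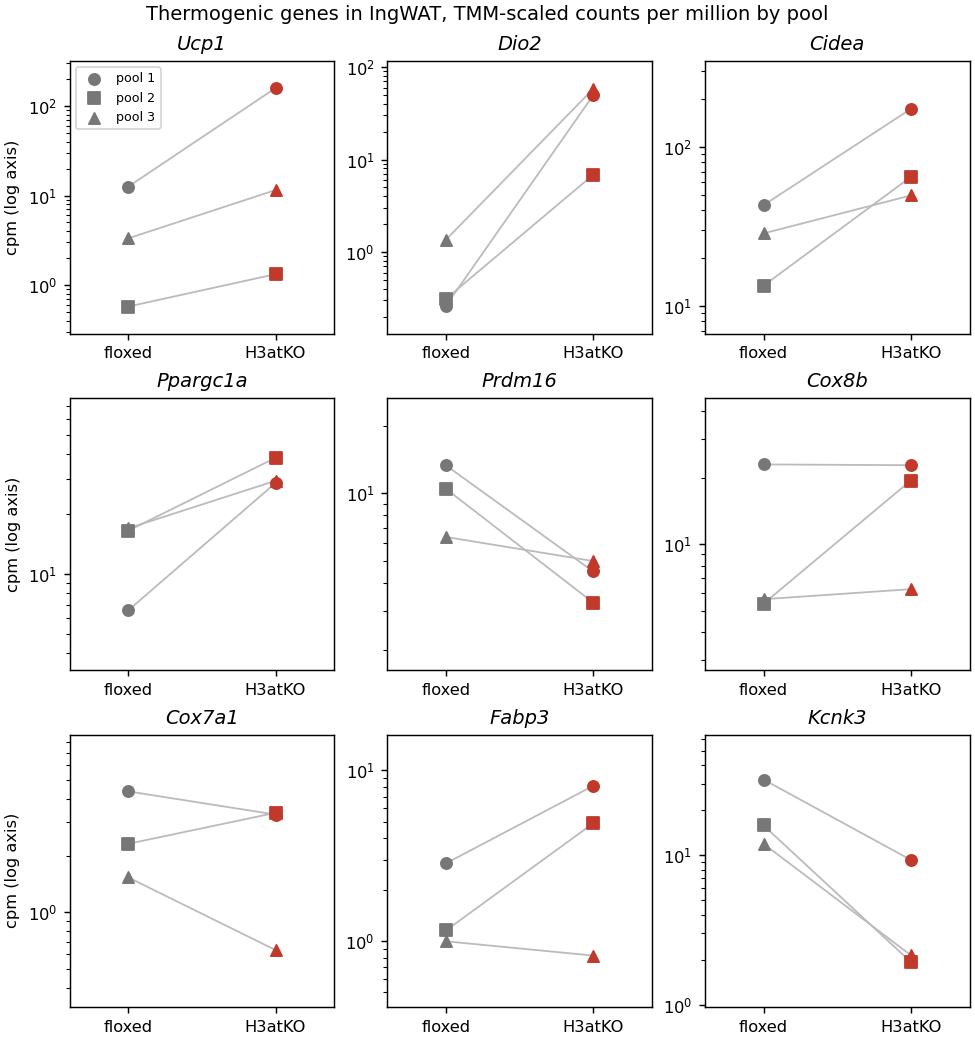
TMM-scaled cpm (log axis) of the 9 thermogenic genes in floxed (grey) and H3atKO (red) pools, with a line joining the pools of the same replicate number (circle 1, square 2, triangle 3). Dio2, Cidea and Ppargc1a were higher in all 3 H3atKO pools than in any floxed pool, and Prdm16 and Kcnk3 were lower. The Ucp1 lines all slope upward from unequal starting levels, with unequal steepness (12.5-fold, 2.30-fold and 3.46-fold in pairs 1 to 3).

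Ucp1 (ENSMUSG00000031710, chromosome 8, 83290352 to 83298452, GRCm38) is the defining gene of thermogenic fat. It had 574, 24 and 137 counts in floxed replicates 1 to 3, or 12.6, 0.577 and 3.33 cpm. It had 3839, 26 and 182 counts in H3atKO replicates 1 to 3, or 158, 1.33 and 11.5 cpm. Replicate 1 was the highest and replicate 2 the lowest in each genotype, and the groups overlapped, since H3atKO replicates 2 and 3 lay below floxed replicate 1. Ucp1 differed 21.8-fold between the floxed pools and 119-fold between the H3atKO pools. Within each pair it was higher in H3atKO, by 12.5-fold, 2.30-fold and 3.46-fold in pairs 1 to 3. The log2 fold change was 2.33 with an SE of 1.87 and an adjusted p of 0.353 (limma voom), and its 95% interval ran from -2.03 to 6.68. With the replicate block it was 2.90, with an SE of 0.47 and an adjusted p of 0.00536. This value lay above the log2 differences of pairs 2 and 3 (1.20 and 1.79). It lay below that of pair 1 (3.65), the pair with the most counts. No pool was left out of the blocked fit. Without H3atKO replicate 1 the unblocked value was 0.36, without floxed replicate 2 it was 1.17, without H3atKO replicate 2 it was 3.94, and without replicate 1 of both genotypes it was 1.4, none of them called.

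Markers of B and T lymphocytes were high in the same 3 pools as Ucp1, though not in the same order. The 7 markers, among them Ms4a1 and Cd22, summed to 106, 5.51 and 6.03 cpm in floxed replicates 1 to 3 and to 284, 7.80 and 372 cpm in H3atKO replicates 1 to 3. The sums ranged from 5.51 to 106 cpm in floxed and from 7.80 to 372 cpm in H3atKO pools. All 7 were detected in each pool, and none was called in limma voom. With the replicate block 3 of 7 were called higher, beside 24.8% of all genes tested. The highest sums were in floxed replicate 1 and in H3atKO replicates 1 and 3, which were also the pools with the 3 highest Ucp1 levels. H3atKO replicate 3 had the highest marker sum but only the third highest Ucp1 level. The inguinal pad encloses a lymph node, which is rich in both cell types. The genes whose centred log2 cpm over the 6 pools lay closest to that of Ucp1, among 13491 genes with a mean of at least 1 cpm, were Iglc3, an immunoglobulin light chain constant gene, Rgs13, a regulator of G protein signaling, and Ccr7, a chemokine receptor. Their root mean square differences from Ucp1 were 0.95, 0.97 and 1.01 on the log2 scale, against a median of 2.68 over all genes compared. Being picked as the closest genes, they lie below that median by construction. Rgs13 was near the floor in floxed replicate 2 (0.024 cpm). It reached the mean of 1 cpm through H3atKO replicates 1 and 3 (3.58 and 2.02 cpm). The part of lymphocyte RNA in the Ucp1 values was not tested.

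**Figure D2:**
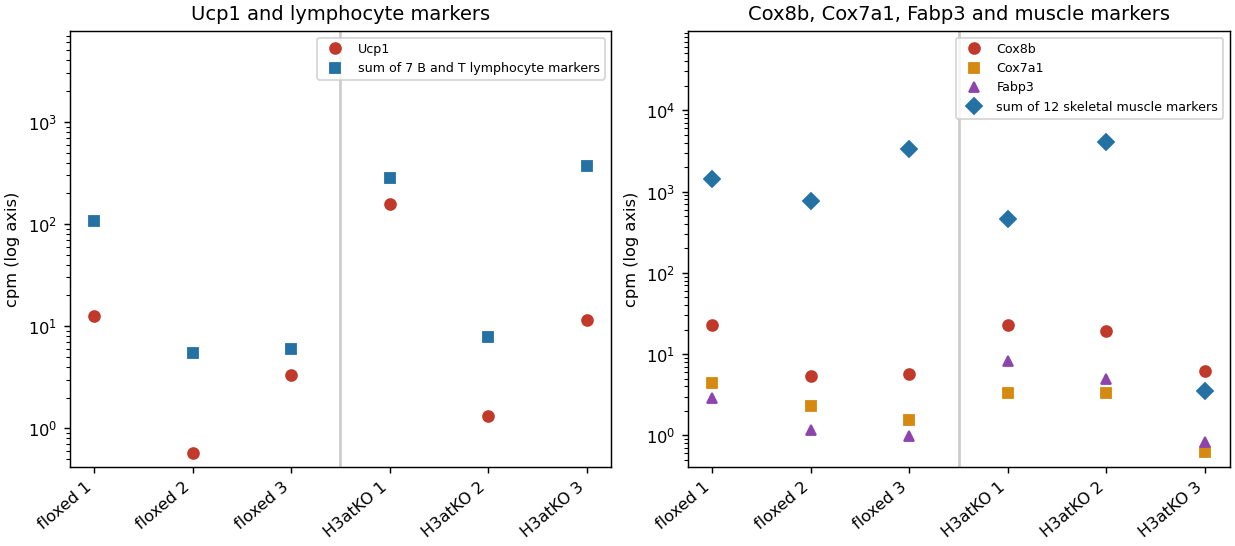
Left, cpm of Ucp1 and summed cpm of 7 lymphocyte markers in each pool, and right, cpm of Cox8b, Cox7a1 and Fabp3 with the summed cpm of 12 skeletal muscle markers (log axes, 1 point per pool). Lymphocyte markers were above 100 cpm in the 3 pools with the highest Ucp1, and muscle markers were at 3.48 cpm in H3atKO replicate 3, where Cox7a1 and Fabp3 were lowest. Among the floxed pools, replicate 3 had the highest muscle markers and the lowest Cox7a1 and Fabp3.

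Dio2 (ENSMUSG00000007682, chromosome 12, 90724552 to 90738438) encodes the deiodinase that makes active thyroid hormone inside brown adipocytes. It had 0.263, 0.313 and 1.36 cpm in floxed replicates 1 to 3, from 12, 13 and 56 counts. It had 49.3, 6.83 and 57.9 cpm in H3atKO replicates 1 to 3, from 1198, 134 and 916 counts. The groups did not overlap, and H3atKO replicate 2, the lowest of its group, was still above the highest floxed pool. The pairs differed by 187-fold, 21.9-fold and 42.5-fold. Dio2 was upregulated with a log2 fold change of 5.78 (SE 1.31, adjusted p = 0.0336, limma voom). The GC correction gave 5.03 with an adjusted p of 0.0544, and the block with the GC correction gave 5.16 with 0.0104. The call was also lost without floxed replicate 1 (adjusted p = 0.0877), floxed replicate 2 (0.123), H3atKO replicate 1 (0.0719) or H3atKO replicate 3 (0.0992), with log2 fold changes between 5.28 and 5.48. Dio1 and Dio3, the other deiodinases, were below the filter, with at most 2 counts in any pool.

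Dio2 did not share the order of the pools seen for Ucp1, since its highest value was in replicate 3 of each genotype. The 3 genes closest to it over the 6 pools were Elovl6, an elongase of saturated fatty acids, Slc7a11, the cystine transporter, and Dnajb9, a chaperone of the endoplasmic reticulum. Their root mean square differences were 0.63, 1.18 and 1.18 on the log2 scale, against a median of 3.19 over all genes compared. Being picked as the closest genes, they lie below that median by construction. The distance also takes in the step between genotypes. Their log2 fold changes were 4.76, 5.39 and 4.41, beside 5.78 for Dio2. Elovl6, for example, had 14.4, 16.3 and 57.3 cpm in floxed and 874, 269.9 and 1108 cpm in H3atKO replicates 1 to 3.

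Cidea (ENSMUSG00000024526, chromosome 18, 67343604 to 67367785) encodes a lipid droplet protein that is abundant in brown fat. It had 43.1, 13.4 and 28.6 cpm in floxed and 173, 64.8 and 49.6 cpm in H3atKO replicates 1 to 3. Every H3atKO pool was above every floxed pool, although floxed replicate 1 came close to H3atKO replicate 3. Its log2 fold change was 1.70 (SE 0.58, adjusted p = 0.0707, limma voom) and 1.69 with the replicate block (adjusted p = 0.00773). The GC content of Cidea, 55.6%, was higher than that of 82.7% of the genes tested, and with the GC correction the log2 fold change was 3.15 (adjusted p = 0.0225). Cidec, the relative that builds the large droplets of white adipocytes, had 3556, 1723 and 643 cpm in floxed and 887, 872 and 229 cpm in H3atKO replicates 1 to 3. Per length of transcript, Cidea reached 2.02%, 1.3% and 7.41% of Cidec in floxed and 32.6%, 12.4% and 36.0% in H3atKO pools. The groups did not overlap in this ratio. The log2 ratio of counts differed by 3.18 (p = 0.1, the smallest that the two-sided exact permutation test of 3 against 3 can give, and 0.25 adjusted over 5 ratios), and pairs 1 to 3 differed by 4.01, 3.25 and 2.28.

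Ppargc1a (ENSMUSG00000029167, chromosome 5, 51454250 to 51567726) encodes the coactivator PGC-1alpha, which drives mitochondrial biogenesis and is induced by cyclic AMP. It had 6.59, 16.5 and 17.0 cpm in floxed and 28.7, 38.3 and 29.4 cpm in H3atKO replicates 1 to 3. The groups did not overlap, and the H3atKO pools lay within 1.34-fold of each other, the narrowest range of the 9 genes in H3atKO. In the unblocked fit its log2 fold change was 1.39 (SE 0.41, adjusted p = 0.0546, limma voom) and 1.35 with the block (adjusted p = 0.0118). Ppargc1a is GC-poor (41.7%, higher than 12.1% of the genes tested). With the GC correction its value was 0.45 (adjusted p = 0.389), and with the block added 0.41 (0.261). Without floxed replicate 3 the uncorrected value was 1.63 and was called (adjusted p = 0.0211). Relative to Ppargc1b, its paralog in mitochondrial control, the counts per length of Ppargc1a were 0.803, 9.90 and 12.4 times as high in floxed and 8.78, 9.29 and 17.6 times in H3atKO pools. Floxed replicate 1 stood apart, and the other pools overlapped (difference of 1.27 in log2 ratio, exact permutation p = 0.6, adjusted p = 0.75, and 0.0174 without floxed replicate 1).

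Prdm16 (ENSMUSG00000039410, chromosome 4, 154316125 to 154636873), a zinc finger regulator of brown and beige cell fate, had lower values in H3atKO mice. It had 13.3, 10.5 and 6.39 cpm in floxed and 4.49, 3.26 and 4.99 cpm in H3atKO replicates 1 to 3. Every H3atKO pool was below every floxed pool, with the smallest step in pair 3. Prdm16 had a fitted log2 fold change of -1.21 (SE 0.43, adjusted p = 0.0785, limma voom) and -1.25 with the block (adjusted p = 0.0251). Prdm16 had a GC content of 53.3%, and the GC correction gave -0.28 (adjusted p = 0.553). Without floxed replicate 3 the value was -1.49 (adjusted p = 0.0162). Mecom, the closest relative of Prdm16, was at 14.6 to 19.4 cpm in floxed and 15.2 to 27.7 cpm in H3atKO pools (log2 fold change 0.30, adjusted p = 0.478).

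Cox8b (ENSMUSG00000025488, chromosome 7, 140898945 to 140900446) and Cox7a1 (ENSMUSG00000074218, chromosome 7, 30184144 to 30186078) encode subunits of cytochrome c oxidase that are used in brown fat, heart and skeletal muscle in place of the Cox8a and Cox7a2 forms of most tissues. Cox8b had 22.9, 5.39 and 5.64 cpm in floxed and 22.7, 19.4 and 6.26 cpm in H3atKO replicates 1 to 3. Pair 2 alone differed by more than 1.5-fold, and the groups overlapped. Fitted over the 6 pools, its log2 fold change was 0.70 (SE 0.71, adjusted p = 0.461, 95% interval from -0.96 to 2.37). With the GC correction it was 2.20 (adjusted p = 0.0371). With library sizes alone it was -0.20, a scaling that shifted the median of all genes by -0.85.

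The ratio of each muscle and brown fat form to the widespread form was read within each pool. Cox8a fell from 136, 118 and 56.5 cpm in floxed to 51.8, 49.5 and 12 cpm in H3atKO replicates 1 to 3 with the block (adjusted p = 0.00473), and did not pass without it (log2 fold change -1.56, adjusted p = 0.0891) or with the GC correction (0.50, adjusted p = 0.361). Per length of transcript, Cox8b stood at 28.9%, 7.84% and 17.2% of Cox8a in floxed and at 75.5%, 67.4% and 89.6% in H3atKO pools, in the order of replicates 1 to 3. The groups did not overlap, and the log2 ratio was higher in every pair, by 1.39, 3.10 and 2.38 (mean difference 2.29, exact permutation p = 0.1, adjusted p = 0.25). This ratio needs no scaling between libraries, but it can still follow GC content, and the GC correction was not applied to it. That correction moved the fitted log2 fold change of Cox8b from 0.70 to 2.20 and that of Cox8a from -1.56 to 0.50.

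Cox7a1 had 4.37, 2.31 and 1.53 cpm in floxed and 3.29, 3.36 and 0.632 cpm in H3atKO replicates 1 to 3. H3atKO replicate 3, with 10 counts, was the lowest pool and the other pools were mixed. The log2 fold change was -0.28 (SE 0.73, adjusted p = 0.780, 95% interval from -1.98 to 1.42) and turned to 1.06 with the GC correction (adjusted p = 0.180), to 0.42 without H3atKO replicate 3 and to 0.13 without floxed replicate 1. Its share of Cox7a2 was 7.73%, 4.21% and 4.37% per length in floxed and 7.63%, 7.45% and 3.27% in H3atKO pools, in the order of replicates 1 to 3. The log2 ratio differed by 0.15 (exact permutation p = 1, adjusted p = 1) and turned negative without floxed replicate 2, H3atKO replicate 1 or H3atKO replicate 2.

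Fabp3 (ENSMUSG00000028773, chromosome 4, 130308595 to 130315463), the fatty acid carrier of heart, muscle and brown fat, had 2.85, 1.15 and 0.996 cpm in floxed and 8.11, 4.89 and 0.822 cpm in H3atKO replicates 1 to 3. H3atKO was 2.84-fold and 4.24-fold higher in pairs 1 and 2, and H3atKO replicate 3, with 13 counts, was the lowest of all pools. Reads that align equally well to its processed pseudogene Fabp3-ps1 were given to neither gene. The log2 fold change was 1.19 (SE 0.87, adjusted p = 0.312) and 1.42 with the block (adjusted p = 0.0366). It was 2.22 with the GC correction (adjusted p = 0.0895) and 2.51 with both (0.0185), and without the block it was 0.48 without H3atKO replicate 1 and 2.08 without H3atKO replicate 3, neither called. Fabp4, the main fatty acid carrier of adipocytes, had a log2 fold change of 0.05 (adjusted p = 0.922). Per length, Fabp3 did not exceed 0.343% of Fabp4 in any pool, and the log2 ratio differed by 1.07 (exact permutation p = 0.5, adjusted p = 0.75), by 0.25 without H3atKO replicate 1 and by 1.94 without H3atKO replicate 3.

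Cox8b, Cox7a1 and Fabp3 are also genes of skeletal muscle, so muscle markers were read beside them. The 12 markers, among them Myh4 and Tnnt3, summed to 1410, 772 and 3294 cpm in floxed and to 465, 4033 and 3.48 cpm in H3atKO replicates 1 to 3. The sums ranged from 772 to 3294 cpm in floxed and from 3.48 to 4033 cpm in H3atKO pools, each marker had between 1 and 16 counts in H3atKO replicate 3, and none was called. H3atKO replicate 3, the pool with the lowest marker sum, was also the lowest pool for Cox7a1 and Fabp3 and had the highest ratio of Cox8b to Cox8a. Other pools did not share this order. Floxed replicate 3 had the highest floxed marker sum but the lowest floxed Cox7a1 (1.53 cpm) and Fabp3 (0.996 cpm). H3atKO replicate 2 had the highest marker sum of all pools but less Fabp3 (4.89 cpm) than H3atKO replicate 1 (8.11 cpm). The part of muscle RNA in the levels of these genes was not tested.

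**Figure D3:**
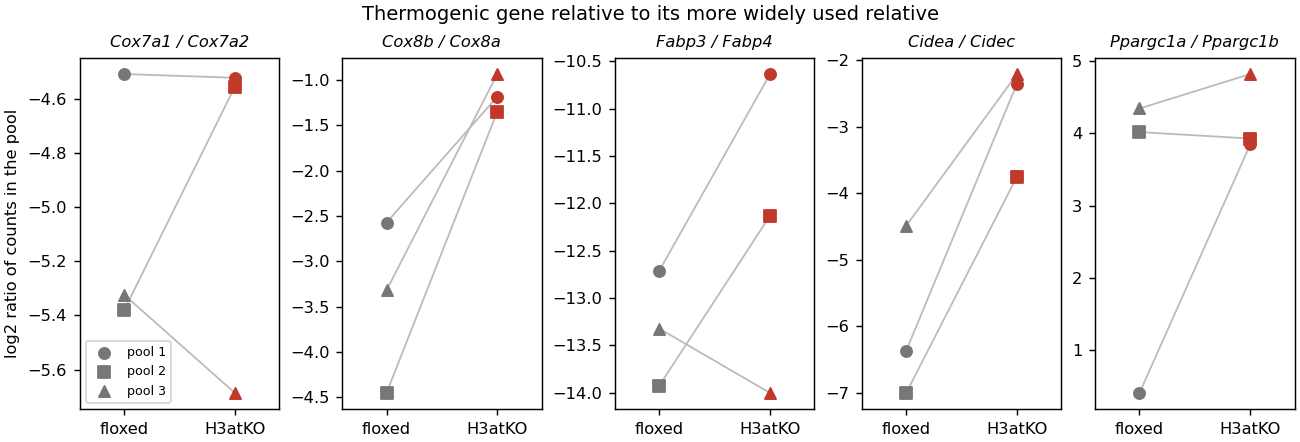
Log2 ratio of the counts of a thermogenic gene to those of a related gene within each pool (floxed grey, H3atKO red, lines joining the same replicate number). For Cox8b to Cox8a and Cidea to Cidec the 3 H3atKO pools lie above the 3 floxed pools, and for the other 3 ratios the groups overlap.

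Kcnk3 (ENSMUSG00000049265, chromosome 5, 30588170 to 30625271) encodes a potassium leak channel of brown adipocytes that holds down their excitability and the adrenergic response. It had 32.0, 15.8 and 11.9 cpm in floxed and 9.31, 1.94 and 2.15 cpm in H3atKO replicates 1 to 3. The groups did not overlap, and the level in H3atKO was 0.291, 0.123 and 0.180 of that in floxed in pairs 1 to 3. Fitted over the 6 pools, the log2 fold change was -2.37 (SE 0.69, adjusted p = 0.0524, limma voom) and -2.27 with the block (adjusted p = 0.00415). Kcnk3 was the most GC-rich of the 9 genes (59.1%, higher than 94.8% of the genes tested). With the GC correction its log2 fold change was -0.20 (adjusted p = 0.800), and 0.05 with the block added (adjusted p = 0.942). Without floxed replicate 3 the uncorrected value was -2.66 (adjusted p = 0.0181).

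**Figure D4:**
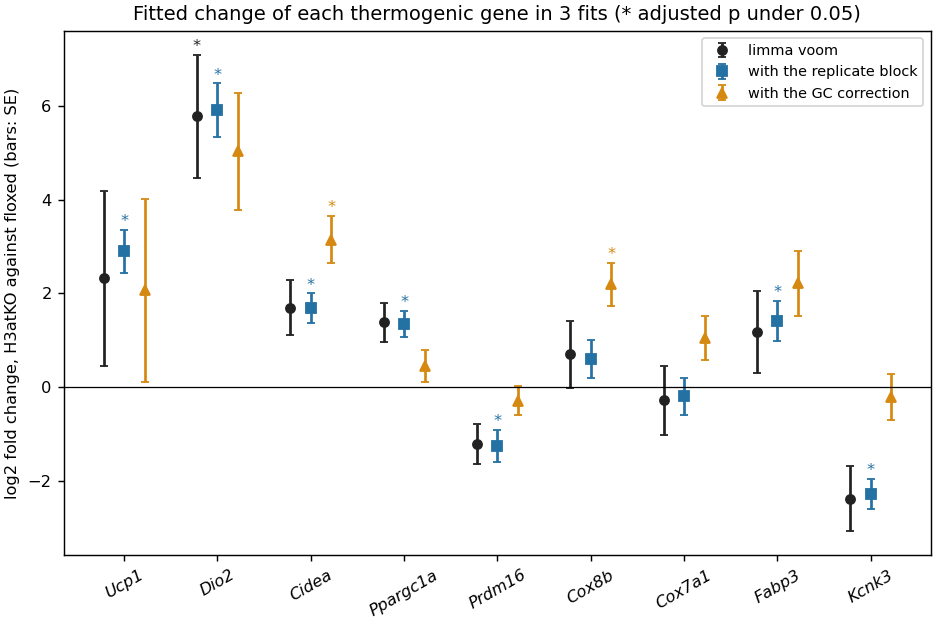
Log2 fold change of H3atKO against floxed (bars, SE) for each thermogenic gene by limma voom, with the replicate block and with the GC correction, with a star for an adjusted p under 0.05. The block left the values near those without it and narrowed the bars, whereas the GC correction moved the GC-poor Ppargc1a down to 0.45 and the GC-rich Cidea, Cox8b, Cox7a1 and Kcnk3 up, Kcnk3 to -0.20.

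Levels of the members were compared with each other per kilobase of exon (FPKM from the TMM-scaled cpm). In floxed pools the order of means was Cox8b (31.4 ± 27.9, SD, n = 3), Cidea (25.5 ± 13.3), Cox7a1 (5.11 ± 2.74), Kcnk3 (5.01 ± 2.68), Ucp1 (3.36 ± 3.85), Ppargc1a (2.03 ± 0.891), Fabp3 (2.03 ± 1.25), Prdm16 (1.08 ± 0.373) and Dio2 (0.111 ± 0.107). Neighbours in that order overlapped in range, except that every floxed pool had more Cidea than any had Cox7a1 and less Dio2 than any had Prdm16. In H3atKO pools the order was Cidea (86.0 ± 60.6), Cox8b (44.8 ± 24.2), Ucp1 (34.8 ± 53.6), Dio2 (6.54 ± 4.70), Fabp3 (5.60 ± 4.44), Ppargc1a (4.87 ± 0.817), Cox7a1 (4.54 ± 2.91), Kcnk3 (1.12 ± 1.06) and Prdm16 (0.456 ± 0.0955). All neighbours in this order overlapped in range. Dio2 was the lowest member in each floxed pool, and it was the fifth, the sixth and the third highest in H3atKO replicates 1 to 3. Ucp1 in H3atKO spanned 0.810 to 96.6 FPKM. Cidea and Cox8b had the highest means in both genotypes.

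The pools shared part of their order across the members. Replicate 1 was the highest floxed pool for 7 of the 9 genes, all but Dio2 and Ppargc1a, and the highest H3atKO pool for 5 of the 9, namely Ucp1, Cidea, Cox8b, Fabp3 and Kcnk3. How many of all genes had their highest value in these pools was not counted. Floxed replicate 1 was also the pool whose deviation rose most with GC content (rho 0.80). Dio2 and Ppargc1a were the GC-poorest members (43.4% and 41.7%). The part of GC content in this order was not tested. In 6 of the 9 genes all 3 pairs differed in one direction, upward for Ucp1, Dio2, Cidea and Ppargc1a and downward for Prdm16 and Kcnk3. At least 51.7% of all genes tested did so too, since genes whose groups do not overlap have all pairs in one direction. Members higher in H3atKO numbered 5 in pair 1, 7 in pair 2 and 5 in pair 3.

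Relative to adipocyte markers, whose mean was 11.4, 10.7 and 9.33 log2 cpm and 8.77, 9.81 and 8.64 in the floxed and the H3atKO pools (replicates 1 to 3), 8 of the 9 members had positive differences between H3atKO and floxed mice. The differences in log2 level relative to the 10 markers were 7.16 for Dio2, 3.60 for Ucp1, 3.08 for Cidea, 2.77 for Ppargc1a, 2.51 for Fabp3, 2.06 for Cox8b, 1.04 for Cox7a1, 0.20 for Prdm16 and -1.02 for Kcnk3. The marker mean was lower in H3atKO than in floxed in every pair, which raises each of these differences. Single pairs went against the mean for Prdm16 (-0.78 in pair 2), Cox7a1 (-0.53 in pair 3) and Kcnk3 (0.82 in pair 1). Without this scale the log2 fold changes of Prdm16 and Cox7a1 were negative (-1.21 and -0.28, limma voom). Dio2, Cidea, Ppargc1a, Cox8b and Fabp3 reached the smallest p of the exact permutation test (0.1, and 0.18 adjusted over 9 members). Leaving out H3atKO replicate 1 lowered the difference of Ucp1 to 1.68 and that of Cox7a1 to 0.50, and leaving out H3atKO replicate 2 gave 5.63 for Ucp1 and -0.25 for Kcnk3. Of the markers themselves Lpl, the lipase that takes up circulating fat, was upregulated (log2 fold change 2.02, adjusted p = 0.0253, and 1.29 with 0.0544 after the GC correction) and Cfd, adipsin, was down-regulated (-3.99, adjusted p = 0.0223, and -1.93 with 0.0228 after the GC correction), so this scale is not one of constant genes. Both calls were lost without floxed replicate 1 (adjusted p 0.0731 for Lpl and 0.0503 for Cfd), floxed replicate 2 (0.110 and 0.0937) or H3atKO replicate 3 (0.103 and 0.0755), that of Lpl also without H3atKO replicate 2 (0.0602) and that of Cfd without H3atKO replicate 1 (0.0600).

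The adrenergic and cyclic AMP arm upstream of the members was listed as 10 genes, all tested. Pde3b, a phosphodiesterase that breaks cyclic AMP down, Prkar2b, a regulatory subunit of protein kinase A, and Creb1, the cyclic AMP response factor, were upregulated, and none was down-regulated (list median 0.68), beside 9.42% and 7.07% of all genes tested. Pde3b went from 525, 592 and 725 cpm in floxed to 1642, 2461 and 2327 cpm in H3atKO replicates 1 to 3 (log2 fold change 1.80, SE 0.27, adjusted p = 0.0151). The fitted log2 change was 1.77 for Prkar2b (adjusted p = 0.0292) and 1.38 for Creb1 (0.0441), and with the GC correction their adjusted p were 0.0964 and 0.371. Adrb3, the main adrenergic receptor of mouse adipocytes, and Gnas, the stimulatory G protein, were not called without the GC correction (log2 fold changes 0.45 and 0.18, adjusted p 0.373 and 0.684) and were called with it (1.81 and 2.12, adjusted p 0.0434 and 0.0225).

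Of 15 activators of the brown program, 3 were upregulated and none down-regulated (list median -0.33), beside 9.42% and 7.07% of all genes tested. They were Ppara, the nuclear receptor of fat oxidation, which went from 6.24, 4.59 and 5.83 to 25.6, 30.8 and 14.2 cpm (log2 fold change 2.05, SE 0.39, adjusted p = 0.0248), Cebpb (1.88, adjusted p = 0.0393) and the orphan receptor Esrrg (2.56, adjusted p = 0.0269, and 0.0698 with the GC correction). With the block 4 activators were called higher and 5 lower, beside 24.8% and 28.7% of all genes tested. Of 8 restrainers, Nrip1, a corepressor of Ucp1 transcription (1.48, adjusted p = 0.0418), and Rb1 (1.23, adjusted p = 0.0425) were upregulated and Tle3, a corepressor that opposes Prdm16, was down-regulated (-2.06, adjusted p = 0.0436). None of the 8 was called with the GC correction.

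Other genes of brown fat function were read beside the members. Of 15 listed, 13 were tested, 4 were upregulated and 1 was down-regulated (list median 0.77), beside 9.42% and 7.07% of all genes tested. Elovl3, an elongase of very long chain fatty acids that is induced in cold-activated brown fat, had 4.22, 0.216 and 0.972 cpm in floxed and 722, 283 and 172 cpm in H3atKO replicates 1 to 3 (log2 fold change 8.35, SE 1.05, adjusted p = 0.0106). Gk, glycerol kinase, rose from at most 12.2 cpm in floxed to at least 99.8 cpm in H3atKO pools (3.96, adjusted p = 0.0149). Otop1, a proton channel abundant in brown fat, rose by 2.91 (adjusted p = 0.0191). S100b, which encodes a factor that brown adipocytes secrete to draw in nerves, fell by 1.98 on the log2 scale (adjusted p = 0.0490). Ucp2, a relative of Ucp1 found in many cell types, was down-regulated from 152, 54.5 and 50.6 to 18.8, 8 and 7.71 cpm (-2.79, adjusted p = 0.0318, and 0.0577 with the GC correction).

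Lineage markers did not share a direction. Of 7 beige markers tested out of 8, Shox2 was upregulated (log2 fold change 1.78, adjusted p = 0.0427, and 0.0545 with the GC correction) and Hoxc9 was down-regulated (-2.03, adjusted p = 0.0310, and 0.240 with the GC correction), with a median of -0.92. Of 3 classical brown markers tested out of 4, Mpzl2 was upregulated (2.33, adjusted p = 0.0156), and Zic1 was below the filter. The median of the classical brown markers was 2.06. With the GC correction the medians were 0.22 for beige and 1.69 for classical brown markers. With the block 2 beige markers were called higher and 4 lower, and 2 classical brown markers higher and 1 lower. That fit called 24.8% of all genes higher and 28.7% lower. In all, 18 of the 63 tested genes of these lists and of the relatives of the members were called, 14 higher and 4 lower, against 9.42% higher and 7.07% lower over all genes. With the GC correction 9 of the 18 stayed called, with library sizes alone 12 (Ppara, Cebpb, Creb1, Nrip1, Rb1 and Shox2 were lost) and with no filter on low counts 14 (Cebpb, Creb1, Rb1 and Shox2 were lost). Leaving out a pool kept 18 of these 18 calls without floxed replicate 3, 7 without H3atKO replicate 2, 5 without H3atKO replicate 1, 4 without floxed replicate 1, 2 without H3atKO replicate 3 and 0 without floxed replicate 2, replicate 1 of both genotypes or replicate 2 of both, with all 18 in the same direction each time.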

How the data were processed

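RNA from IngWAT was sequenced in 3 pools per genotype. The authors made stranded poly(A) libraries, trimmed reads (cutadapt 1.3 in the submitters' processing notes), aligned them to GRCm38 with STAR 2.4.2a and counted them on Ensembl release 82 genes with htseq-count (HTSeq 0.6.1). They deposited raw counts for 46517 genes, neither normalized nor filtered. The last 5 lines of each table tally reads given to no gene and were left out. Multi-mapped alignments, which were given to no gene, made up 28.3% to 35.2% of alignments in floxed and 43.8% to 45.5% in H3atKO pools.

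Genes that reached 1 cpm in any sample entered the test named in the study's methods, voom and moderated linear models of limma 3.58.1 with TMM factors from edgeR 4.0.16 (R 4.3.3). Calls were made below an adjusted p (Benjamini-Hochberg) of 0.05. Symbols, positions, exon length and GC content came from GENCODE M21 on GRCm38, which matched 46005 identifiers. At these depths 3 counts correspond to 0.0852 to 0.126 cpm before TMM scaling, counting error alone. The cpm levels given for genes are TMM-scaled, with factors from 0.663 (H3atKO replicate 3) to 1.37 (floxed replicate 2). Log2 ratios within a pool, with 0.5 counts added, were compared by two-sided exact permutation tests (scipy 1.17.1). Promoter sequences came from RefSeq.

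The labels number the pools 1 to 3 in each genotype without saying what a number shares. Same-numbered pools deviated together from their group means (r across genes of 0.51, 0.39 and 0.26), and unlike numbers gave -0.29 to -0.05. Deviations from a group mean cancel out within the group, so positive values for like numbers pull those for unlike numbers down. The number was used as a block, on the ground of the like-numbered values, beside the fit without it. For the GC correction, a loess curve of each pool's deviation on GC content (span 0.3) was subtracted, which also removes any effect of genotype that follows GC content. DESeq2 1.42.0, edgeR's quasi-likelihood test, other scalings and filters and each pool left out were the other alternatives. The 9 members, the gene lists and the tests were chosen with earlier results of these data known. Named were all members and their listed relatives, up to 3 called genes per direction in each pathway list, the 2 most abundant genes of each marker list (1 lymphocyte marker is not reported here and was left out of its list), and the 3 genes closest to Ucp1 and to Dio2. Lpl, Cfd, Adrb3, Gnas, Mecom, Ucp2, Dio1, Dio3 and Zic1 were named after their values were seen.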

Additional observations from a re-analysis of the deposited data

How the results depend on the processing

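Beside 1 member called higher and 0 lower by limma voom, edgeR called 2 higher, DESeq2 3 and 2 lower, sample quality weights 5 and 2, the replicate block 5 and 2, the GC correction 2, the block with the GC correction 5, library sizes alone 2 lower and a minimum of 10 counts 1 lower. Leaving out a pool gave 0 to 2 higher and 0 to 2 lower, and leaving out a replicate number of both genotypes (added after seeing the data) 0 to 2 and 0 to 1. Over all genes, the 1410 higher and 1058 lower calls became 2749 lower with edgeR, 2935 and 3465 with DESeq2, 306 and 5667 with library sizes alone, 1864 lower with a minimum of 10 counts, 3717 and 4290 with the replicate block, 4003 and 4440 with quality weights and 808 and 464 with the GC correction. They ranged from 1 to 2729 higher and 0 to 3828 lower without a pool, and from 0 to 2166 and 0 to 2817 without a replicate number. The direction of Cox8b turned with library sizes alone (-0.20). Cox7a1 turned with quality weights (0.10), the GC correction (1.06), the block with the GC correction (1.23), without floxed replicate 1 (0.13), without H3atKO replicate 3 (0.42) and without replicate 3 of both genotypes (0.0731), and ranged from -0.71 to 0.42 without a pool. Kcnk3 turned when the GC correction was added to the block (0.0502). Ucp1, Dio2, Cidea, Ppargc1a, Prdm16 and Fabp3 kept their direction in all 20 alternatives. The ratio of Cox7a1 to Cox7a2 ranged from -0.0497 to 0.53 without a pool, negative without floxed replicate 2 (-0.01) and H3atKO replicates 1 (-0.0497) and 2 (-0.03), and was -0.19 without replicate 2 of both genotypes. Prdm16 relative to adipocyte markers ranged from -0.15 to 0.74, negative without floxed replicate 1 (-0.02) and H3atKO replicates 1 (-0.0022) and 3 (-0.15), and was -0.22 without replicate 1 of both genotypes. The other 4 ratios and 8 relative levels kept their direction under each alternative tried, but not their size. The GC correction was not among the alternatives tried for ratios and relative levels. It moved the fitted log2 fold change of Ppargc1a from 1.39 to 0.45 and that of Ppargc1b from 0.12 to 2.04, so the direction of their ratio is not secured against GC content. Without a pool, the ratio of Ppargc1a to Ppargc1b ranged from 0.0174 to 1.98, that of Fabp3 to Fabp4 from 0.25 to 1.94, and the relative levels of Ucp1 from 1.68 to 5.63, of Ppargc1a from 1.87 to 3.57, of Cox7a1 from 0.50 to 1.60 and of Kcnk3 from -1.90 to -0.25. The fitted change of Ucp1 ranged from 0.36 to 3.94 in the same way, of Cidea from 1.13 to 2.08, of Ppargc1a from 0.92 to 1.63, of Cox8b from 0.30 to 1.41 and of Fabp3 from 0.48 to 2.08. Paired within replicate numbers, as sign flips of the 3 differences, the ratios could reach a p of 0.25 at the least, so the replicate block changed no call there. Why a call changed with the scaling, the block or the test was not tested. Depth limits Ucp1, Dio2, Cox7a1, Fabp3 and Kcnk3, whose lowest pools had 10 to 34 counts.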

Other observations

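Cells other than adipocytes were read through marker lists, since their RNA shares the pools with the thermogenic genes. Over all genes tested, 7.07% were called lower. Of 8 macrophage markers 4 were down-regulated in H3atKO mice (Csf1r, C1qa, C1qb and C1qc), and none was with the GC correction. The 2 most abundant, Mrc1 and Cd163, were not called (log2 fold changes 0.35 and -1.10, adjusted p 0.734 and 0.126, limma voom). The summed level was 292 to 1187 cpm in floxed and 221 to 374 cpm in H3atKO pools. Of 6 endothelial markers Pecam1 (-1.57, adjusted p = 0.0276) and Cdh5 were down-regulated and Kdr was not called (0.30, adjusted p = 0.443), with sums of 636 to 964 cpm in floxed and 437 to 582 cpm in H3atKO pools.

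Of 5 markers of mural cells and smooth muscle 3 were down-regulated (Tagln, Pdgfrb and Myh11), and the 2 most abundant, Rgs5 and Acta2, had log2 fold changes of 0.98 and -4.62 (adjusted p 0.0703 and 0.0518). Of 8 stromal progenitor markers Pi16 was down-regulated, and Dcn and Col3a1 were not called (-0.67 and -1.08, adjusted p 0.288 and 0.252). Stromal markers summed to 2140 to 8972 cpm in floxed and to 1552 to 2294 cpm in H3atKO pools, the highest being floxed replicate 3. Of 4 epithelial markers Epcam and Krt18 passed the filter and neither was called, with a sum of at most 4.49 cpm in any pool. Of the 10 calls on these lists, 5 were kept with the GC correction (Pecam1, Tagln, Pdgfrb, Myh11 and Pi16). Leaving out a pool kept all 10 without floxed replicate 3, 2 without floxed replicate 1 or H3atKO replicate 2 (Pi16 and Pdgfrb), 1 without H3atKO replicate 1 or 3 (Pi16) and 0 without floxed replicate 2. These markers were called in the fit without the block and their part in the levels of the thermogenic genes was not tested.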
